A study of Mus musculus with 12 samples.

Results

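Hearts under pressure overload were compared between mice fed a diet free of branched-chain amino acids (BCAA-free) and mice fed a control diet that contains them. The comparison rests on 6 libraries, 3 per diet, of the 12 in the series, all from hearts after transverse aortic constriction (TAC), an operation that narrows the aorta and raises the load on the left ventricle. Genes were taken by their level alone, a mean of at least 10 normalized reads over the 6 libraries, which kept 18039 of the 18098 genes in the table of these groups. All mice were male C57Bl/6J aged 12 weeks. Their diet began 4 days before surgery and their hearts were taken 1 week after it, so that the control diet TAC and BCAA-free TAC groups differ in diet alone by their labels. RNA was extracted with Trizol and libraries were made from poly(A) RNA. The other 6 libraries, sham-operated hearts on each diet with 3 libraries per group, serve below as background levels and for a test of whether the diet effect differed between TAC and sham hearts.

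Leucine, isoleucine and valine are essential amino acids. Cells transaminate them to keto acids, which the branched-chain keto acid dehydrogenase complex oxidises in mitochondria; the kinase Bckdk switches this complex off and the phosphatase Ppm1k switches it on. Leucine is also a signal for the growth kinase mTORC1, and a shortage of any essential amino acid can engage the transcription factor Atf4. Pressure overload makes cardiomyocytes grow and return to fetal genes such as Nppa, turns resident fibroblasts into matrix-producing cells, draws in or expands macrophages, and lowers many genes of fatty acid oxidation and calcium cycling.

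The libraries held 76458091 to 108375891 reads. Nothing in the labels says that replicates were separate animals, so the p-values speak of the scatter among these libraries alone, some of which may come from handling. The first principal component (53.5% of the variance) separated the diets, with scores from -47.6 to -23.2 on the control diet and from 30.7 to 47.7 on the BCAA-free diet. Control diet TAC 3 stood apart on the second component (18.8% of the variance), at 48.3 against -23.2 to 2.89 in the others, and its genes lay farther from their group mean (SD of 0.344 on the log2 scale against 0.242 to 0.282). Mitochondrially coded genes took 17.9% to 19.9% of reads on the control diet and 21.8% to 22.5% on the BCAA-free diet. RNAs without a poly(A) tail, such as Rn7sk, made up 3.98 to 19.8 CPM (counts scaled to a common library size) on the control diet and 8.06, 66.2 and 79.0 on the BCAA-free diet. The atrial light chain Myl7, a sign of how much atrial tissue a library holds, overlapped between the diets. Control diet TAC 1 held 11167 normalized reads of Myl7, the other control diet libraries 4448 and 4825, and the BCAA-free libraries 8269 to 10499.

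**Figure D1:**
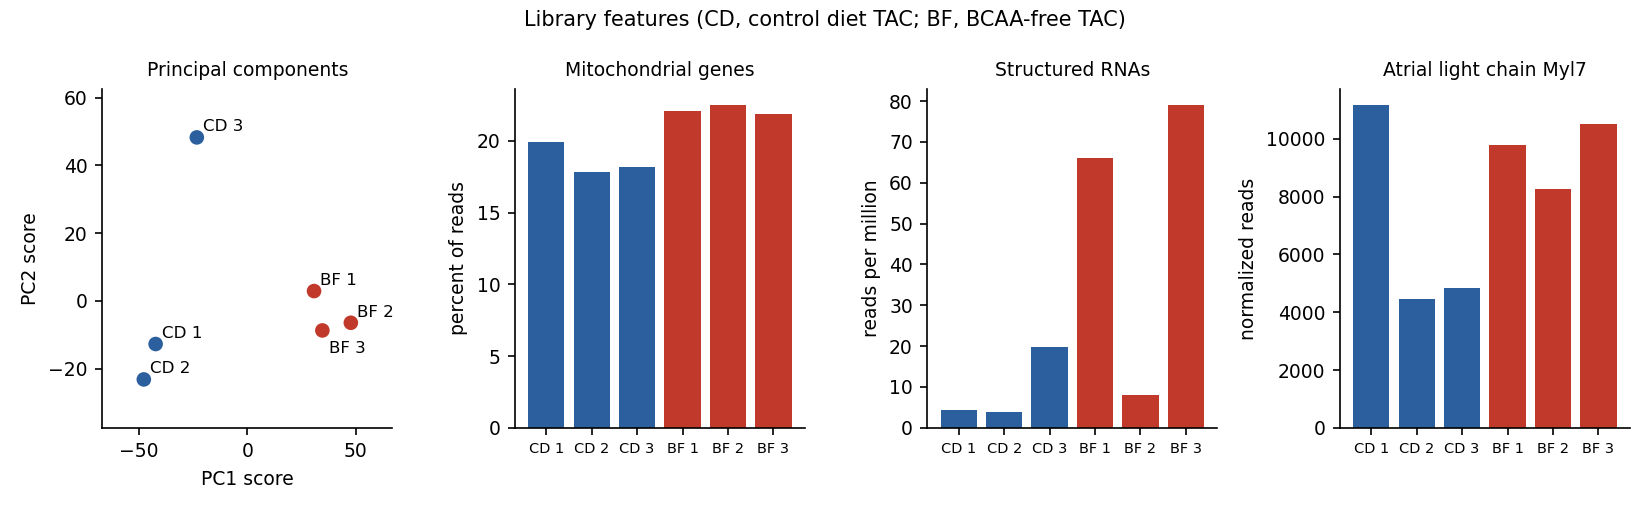
Properties of the 6 TAC libraries (CD, control diet, blue; BF, BCAA-free, red), numbered by replicate. From left to right, scores on the first and second principal components of log2 values over 18039 genes, the percent of reads from mitochondrially coded genes, CPM from RNAs without a poly(A) tail, and normalized reads of the atrial gene Myl7. CD 3 lies at 48.3 on the second component, and the mitochondrial shares of the diets do not overlap.

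Diet changed 3025 of the 18039 genes (16.8% of those tested) at a Benjamini-Hochberg adjusted p below 0.05 with limma, the threshold for every call below. On the BCAA-free diet 1124 genes rose (6.23%) and 1901 fell (10.5%). Large changes were mostly falls: of 953 called genes that changed at least 2-fold, 740 fell and 213 rose, and of 186 that changed at least 4-fold, 168 fell and 18 rose. The libraries of the diets did not overlap in 6526 genes, 36.2% of those tested. The authors' deposited table gave 3779 genes an adjusted p below 0.05 (1485 higher and 2294 lower), and 3005 of the 3025 calls were among them in the same direction. The number of calls moved with single libraries: it was 1594 and 6025 without control diet TAC 1 and 3, and 1927, 1192 and 1518 without BCAA-free TAC 1, 2 and 3. Of the 3025 genes, 1097 passed in all 6 such fits. Of the 3025, 2963 still passed in the same direction without control diet TAC 3. Of the calls 37.2% were rises. This share was 8.55% when each library was scaled to its total, which moved the median log2 change of all genes by -0.231 (the median was 0.02 with the deposited scaling). Directions are therefore given relative to the deposited scaling, and where the share of rises among the calls of a list moves by over 10 percentage points under the other scaling, or its median changes sign, this is given with the list.

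**Figure D2:**
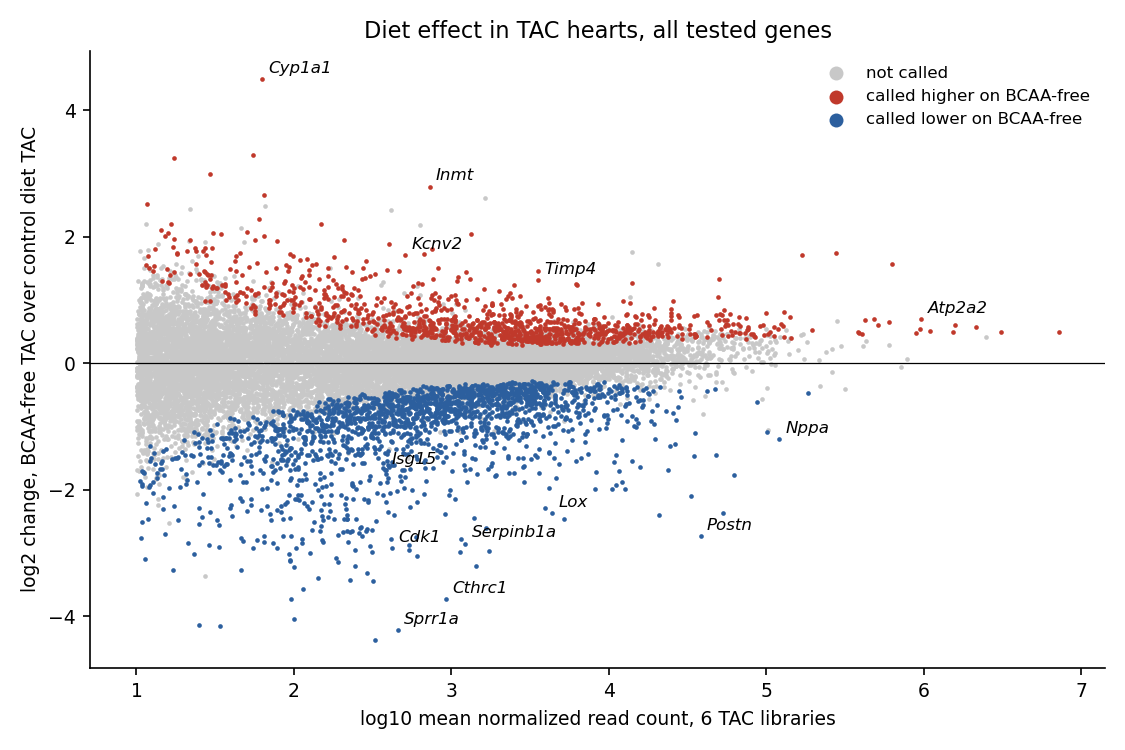
Each point is 1 of 18039 genes: the x axis is the log10 of its mean normalized read count over the 6 TAC libraries, the y axis its log2 change on the BCAA-free diet relative to the control diet. Red points were called higher (1124), blue points lower (1901) and grey points were not called; the falls reach larger sizes than the rises, except for Cyp1a1.

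The largest falls were mostly in genes linked to scar-forming fibroblasts and to dividing cells, with Sprr1a, linked to stressed cardiomyocytes, among them. Which cells made this RNA cannot be told from whole hearts. Sprr1a, a small proline-rich protein that stressed cardiomyocytes induce (chr3:92483952-92485895, GRCm38), held 1039, 783 and 777 normalized reads in control diet TAC libraries 1 to 3 and 55.9, 22.5 and 73.2 in BCAA-free TAC libraries 1 to 3. It was 18.6-fold lower on the BCAA-free diet (log2 change -4.21 ± 0.37, adjusted p = 0.000307), and the sham hearts of both diets held 25.4 reads at most. Cthrc1, which activated fibroblasts secrete to act on collagen (chr15:39076932-39087121), had 1885, 2233 and 1037 reads on the control diet and 162, 76.5 and 146 on the BCAA-free diet (log2 change -3.73 ± 0.33, adjusted p = 0.000328). Every BCAA-free library lay far below every control diet library for both genes. C1qtnf3, a secreted protein of the C1q and tumour necrosis factor family, had the largest fall of all named genes (log2 change -4.37 ± 0.78, adjusted p = 0.00706). Its control diet levels were uneven, at 659.5, 1111 and 113 reads, against 31.7 or fewer on the BCAA-free diet. The collagen prolyl hydroxylase subunit P4ha3 fell from 97.3 to 259 to 5.63 to 12.8 reads (log2 change -4.05 ± 0.42, adjusted p = 0.000529). The fibril-associated collagen gene Col9a2 (log2 -3.43 ± 0.36) and the hyaluronan-binding Cemip (-3.23 ± 0.47) fell by less. The other large falls were in a run of genes of dividing cells: Ankle1 (-3.72 ± 0.31), Mxd3 (-3.57 ± 0.40), the mitotic kinase Pbk (-3.43 ± 0.18), the DNA glycosylase Neil3 (-3.39 ± 0.28), the microtubule-associated Ckap2 (-3.31 ± 0.27) and Pimreg (-3.21 ± 0.26). Each of these 12 genes remained called in all 6 fits that left out 1 library.

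The largest rises were of modest size, apart from Cyp1a1 and Inmt. Cyp1a1, an oxygenase that is the classic target of the aryl hydrocarbon receptor (chr9:57687928-57703824), had 4.36, 2.99 and 4.16 normalized reads on the control diet and 194, 115 and 54.9 on the BCAA-free diet (log2 change 4.49 ± 0.45, adjusted p = 0.000483). Its control diet TAC values rest on few reads, and sham hearts on the control diet held 14.4 to 40.2. Inmt, an amine methyltransferase (chr6:55170626-55175043), had 189, 161 and 195 reads on the control diet and 1166, 1543 and 1113 on the BCAA-free diet (log2 change 2.79 ± 0.16, adjusted p = 9.91e-05). Sham hearts lay at 413 to 981 reads of Inmt on the control diet and 1177 to 1681 on the BCAA-free diet. In both genes control diet TAC was the lowest of the 4 groups and did not overlap any of the others. Next came the cell death gene Hrk (log2 2.27 ± 0.34), the aminopeptidase Lvrn (2.20 ± 0.25), the polarity gene Crb1 (2.07 ± 0.32), the cyclic nucleotide-gated channel subunit Cngb3 (1.95 ± 0.29) and Mir1b (1.94 ± 0.49). They were followed by the plakin Ppl (1.81 ± 0.16), the lectin Clec18a (1.73 ± 0.26), the potassium channel subunit Kcnv2 (1.71 ± 0.23) and Gnmt (1.68 ± 0.26), a methyltransferase that uses up S-adenosylmethionine. The call of Mir1b, a short precursor gene inside poly(A) data, was lost without BCAA-free TAC 1, 2 or 3 (highest adjusted p = 0.106). The control diet TAC libraries of Crb1, Hrk, Lvrn, Cngb3, Clec18a and Kcnv2 were likewise below all sham libraries. The BCAA-free TAC libraries of Lvrn, for example, lay at 226 to 276 reads between the sham values of 145 to 187 on the control diet and 253 to 363 on the BCAA-free diet, overlapping the latter, and those of Kcnv2 lay mostly below its sham values.

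**Figure D3:**
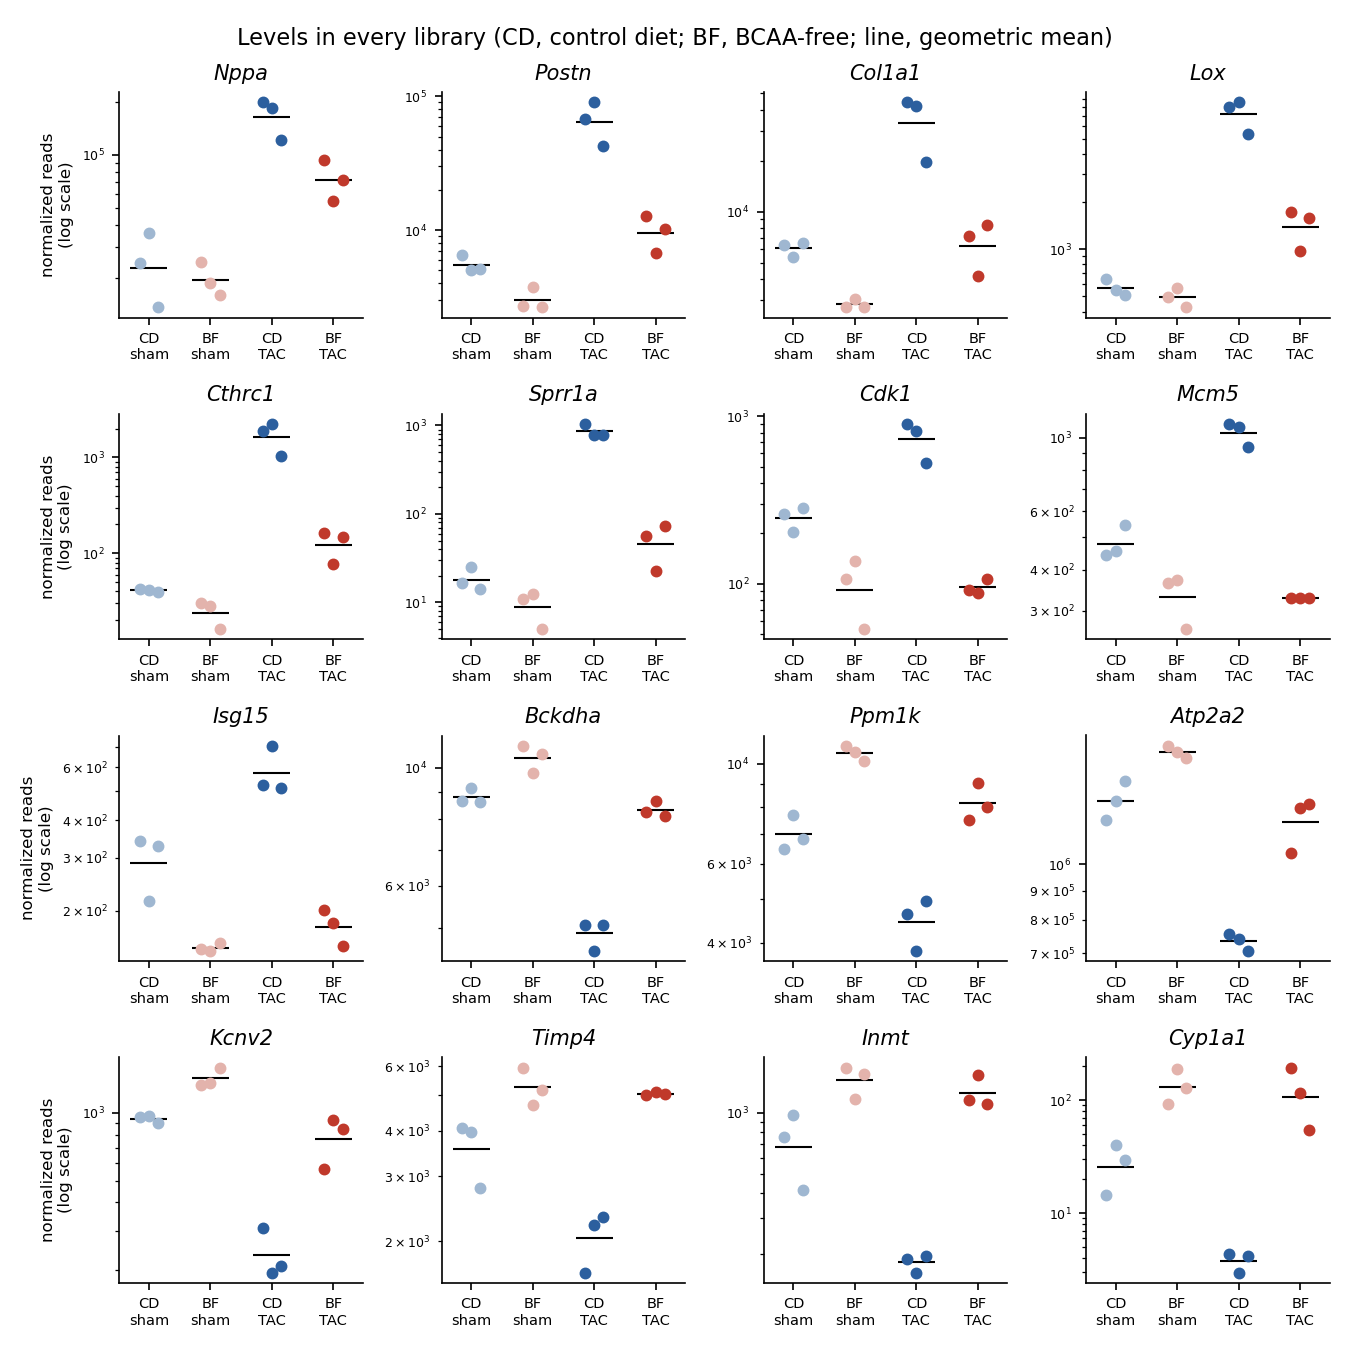
Normalized reads of 16 genes in all 12 libraries on log axes that differ between panels; each point is a library and each line the geometric mean of its group (CD, control diet; BF, BCAA-free; sham or TAC). In all 16 genes the BCAA-free TAC points (red) do not overlap the control diet TAC points (blue).

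The lists of genes described next are compared with the background of all tested genes, in which 6.23% were called higher and 10.5% lower with a median log2 change of 0.02. The lists were chosen with earlier results of these data known, so a share above this background is no independent test of a list. In lists with 0 called members in a direction, 7 of 341 tested members had an unadjusted p below 0.05 for a rise (18 lists; edgeR called 1) and 5 of 282 for a fall (12 lists; edgeR called 0). Classic markers of cardiac growth were split. Of 20 tested members 7 fell and 1 rose, with a median log2 change of -0.45. Nppa, the atrial natriuretic peptide that overloaded ventricles re-express (chr4:148000722-148002079), had 199199, 184223 and 120798 normalized reads on the control diet and 92952, 54652 and 72238 on the BCAA-free diet. It was 2.29-fold lower on the BCAA-free diet (log2 change -1.20 ± 0.23, adjusted p = 0.00742), still above the sham range of 13576 to 36078 on the control diet. The deubiquitinating enzyme Uchl1 (log2 -1.32 ± 0.14), the calcineurin inhibitor Rcan1 (-0.83 ± 0.14) and the stretch-sensing LIM protein Fhl1 (-0.92 ± 0.16) fell as well. All of their BCAA-free libraries lay below their control diet libraries. The adult myosin heavy chain Myh6 was the member that rose (log2 change 0.57 ± 0.15, adjusted p = 0.0307), from 1987694, 1568936 and 1648277 to 2340275, 2520415 and 2858240.0 reads. Its call was lost without control diet TAC 2 or BCAA-free TAC 1, 2 or 3 (highest adjusted p = 0.146). The fetal and stress genes Nppb, Myh7 and Acta1 did not pass, and their libraries overlapped between diets. Nppb had 42923, 58977 and 68177 reads on the control diet and 67035, 32659.9 and 42010.4 on the BCAA-free diet (log2 change -0.30 ± 0.25, adjusted p = 0.452). Myh7, the slow myosin heavy chain, had 99914, 187514 and 61958 and 134725, 59644 and 64915 (log2 change -0.38 ± 0.41, adjusted p = 0.569). Skeletal alpha-actin Acta1 had 65027, 192657 and 166174 and 85374, 40529.8 and 66277 (log2 change -1.06 ± 0.41, adjusted p = 0.111); it was called without control diet TAC 1, adjusted p = 0.0144. In the natriuretic peptide system, Nppa fell while Corin, the protease that activates the peptide (log2 0.75 ± 0.14), the clearance receptor Npr3 (0.68 ± 0.13) and the degrading protease Mme (0.49 ± 0.12) rose. The other 8 of 12 tested members were not called, and the list's median of 0.10 turned to -0.13 under scaling to the library total (2 higher and 2 lower called). Mme lost its call without control diet TAC 1 or 2 or BCAA-free TAC 2 or 3 (highest adjusted p = 0.117). Nppa is also an atrial gene. The atrial markers, Nppa included, summed to 212272 to 319579.6 reads on the control diet and 150084 to 195064 on the BCAA-free diet. The reads of Nppa itself, given above, are a large part of these sums. Of the 8 tested atrial markers Nppa fell and Stard10 rose (log2 0.59 ± 0.16, call lost without control diet TAC 2 or BCAA-free TAC 1, 2 or 3 (highest adjusted p = 0.126)), and Myl7 overlapped as given above. The atrial genes Sln and Myl4, named after their values were seen, overlapped too. Sln had 1452 to 3642 reads on the control diet and 2753 to 3639 on the BCAA-free diet, and Myl4 had 6686 to 18534 and 10124 to 10686. Atrial calls numbered 5 and 1 without control diet TAC 1 and 2, and 1, 1 and 1 without BCAA-free TAC 1, 2 and 3, and the part of atrial tissue in the fall of Nppa was not tested. The hypertrophic list had 5 without control diet TAC 2 and 5 and 4 without BCAA-free TAC 2 and 3. Scaling to the library total gave 0 higher and 12 lower calls in the hypertrophic list and 0 higher and 1 lower among the atrial markers, whose median turned from 0.03 to -0.21.

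Genes of the contractile apparatus leaned upward. Of 25 sarcomere members 11 rose and 0 fell, with a median log2 change of 0.41. The light chain kinase Mylk3 had 36113, 37075 and 39293 normalized reads on the control diet and 59562, 69471 and 63859 on the BCAA-free diet (log2 change 0.78 ± 0.11, adjusted p = 0.0019). The M-band protein Myom2 had 65354, 83519 and 69124 and 129350.2, 123195 and 123866 (log2 change 0.80 ± 0.13, adjusted p = 0.00304). The groups did not overlap in either gene, and the BCAA-free TAC libraries of Myom2 lay within the range of BCAA-free sham hearts, 110725 to 136233. The titin cap Tcap (log2 0.73 ± 0.14), the myosin Myh7b (0.58 ± 0.13), the ventricular light chain Myl2 (0.66 ± 0.17) and titin itself, Ttn (0.47 ± 0.13), also rose. Among the genes that move calcium, 5 of 27 rose and 1 fell (median 0.28). Atp2a2, the pump that refills the sarcoplasmic reticulum (chr5:122453513-122502225), had 756585, 741018 and 706361 reads on the control diet, 1049294, 1255478 and 1273301 on the BCAA-free diet and 1197828 to 1398428 in control diet sham hearts (log2 change 0.69 ± 0.13, adjusted p = 0.00793). Its inhibitor phospholamban, Pln (log2 0.69 ± 0.14), and the calcium-binding Hrc (0.72 ± 0.12) rose with it. Fkbp1b, a subunit of the ryanodine receptor, was the member that fell (-0.98 ± 0.24).

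Among cardiac ion channels 10 of 30 rose and 2 fell, with a median log2 change of 0.34. Kcnj2, which carries the inward rectifier current that holds the resting potential, had 1337, 1454 and 987 normalized reads on the control diet and 2780.1, 2939.5 and 2507 on the BCAA-free diet (log2 change 1.14 ± 0.15, adjusted p = 0.00124). Kcnv2, a silent subunit that modifies other potassium channels, had 307, 195 and 209.6 and 563, 934 and 849 (log2 change 1.71 ± 0.23, adjusted p = 0.00147), and control diet sham hearts held 898 to 970.2. In both channels every control diet TAC library lay below every BCAA-free one. Kcnj12, another inward rectifier (log2 0.68 ± 0.11), and the subunits of the ATP-sensitive potassium channel Abcc9 (0.68 ± 0.13) and Kcnj8 (0.40 ± 0.10) rose. The potassium channel Kcna5 was among those that fell (log2 -0.40 ± 0.11, named after its value was seen).

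The summed level of cardiomyocyte markers was 5679950.0 to 6927793 reads on the control diet and 8702518 to 9002128 on the BCAA-free diet. Of its 12 markers 7 rose. The list shares Myh6, Myl2, Ttn and Pln with the genes named above, so its rise is not a separate observation. In whole hearts, fewer cells of a type and less RNA per cell cannot be told apart, and what the share of cardiomyocyte RNA contributes to the rises was not tested. These counts depended on single libraries. Sarcomere calls numbered 5 and 6 without control diet TAC 1 and 2, and 3, 2 and 4 without BCAA-free TAC 1, 2 and 3. Calcium handling calls numbered 3, 3 and 13 without control diet TAC 1, 2 and 3, and 1 and 2 without BCAA-free TAC 2 and 3. Cardiac ion channel calls numbered 7 without BCAA-free TAC 2. Cardiomyocyte marker calls numbered 1 and 2 without control diet TAC 1 and 2, and 1, 0 and 1 without BCAA-free TAC 1, 2 and 3. Myl2, Ttn, Pln, Fkbp1b, Kcnj8 and Kcna5 lost their calls without control diet TAC 1. Myl2, Fkbp1b, Kcnj8 and Kcna5 lost their calls without control diet TAC 2. Myh7b, Myl2, Ttn, Fkbp1b, Kcnj8 and Kcna5 lost their calls without BCAA-free TAC 1. Tcap, Myh7b, Myl2, Ttn, Atp2a2, Pln, Fkbp1b, Kcnj8 and Kcna5 lost their calls without BCAA-free TAC 2. Myl2, Ttn, Atp2a2, Fkbp1b and Kcna5 lost their calls without BCAA-free TAC 3. Among these fits Kcna5 had the highest adjusted p, 0.162. Scaling to the library total left 4 higher and 0 lower calls in the sarcomere list and 3 higher and 4 lower in calcium handling. It left 6 higher and 3 lower among the channels and 2 higher and 0 lower among the cardiomyocyte markers. The medians stayed above 0, but the calls in calcium handling no longer leaned upward.

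Extracellular matrix genes fell across nearly every step of matrix assembly. Of 24 collagen chains 20 fell and 0 rose, with a median log2 change of -1.65. Col1a1, the main chain of fibrillar type I collagen (chr11:94936224-94953042), had 44358, 42015 and 19772 normalized reads on the control diet and 7143, 4164 and 8321 on the BCAA-free diet (log2 change -2.41 ± 0.34, adjusted p = 0.00233). Sham hearts held 5369 to 6568 reads of Col1a1 on the control diet and 2727 to 3071 on the BCAA-free diet, so that BCAA-free TAC hearts overlapped the control diet sham range. Col3a1, the chain of type III collagen (chr1:45311538-45349706), had 96090.2, 108711 and 62891 on the control diet and 20146, 11426 and 20645 on the BCAA-free diet (log2 change -2.37 ± 0.26, adjusted p = 0.000579). Control diet TAC 3 was the lowest control diet library in both and still lay above every BCAA-free library. The network-forming Col8a1 (log2 -1.92 ± 0.22), the fibril-associated Col16a1 (-1.74 ± 0.18) and Col9a2 (-3.43 ± 0.36) fell too. Of the 24 chains, 4 were not called: Col4a3, Col4a4, Col4a5 and Col6a6, with log2 changes of -0.26, -0.26, -0.35 and 0.23, named after their values were seen. Without control diet TAC 3 the first 3 of these were called lower.

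Genes of matricellular proteins and of fibroblast activation fell in 19 of 23 tested members (median -1.81), and none rose. Postn, periostin, the standard marker of activated cardiac fibroblasts (chr3:54361109-54391037), had 67365, 90333 and 42572 normalized reads on the control diet and 12757, 6751 and 10179.9 on the BCAA-free diet (log2 change -2.74 ± 0.29, adjusted p = 0.000686). Sham hearts held 5040.3 to 6539 and 2649 to 3778 reads of Postn on the control and BCAA-free diets. Thbs4, a matricellular protein with a part in the stress response of the endoplasmic reticulum, had 9395, 9868 and 6905 and 2028, 1034 and 1812 (log2 change -2.46 ± 0.24, adjusted p = 0.000496). Meox1, a transcription factor of fibroblast activation, fell from 3405 to 5251 to 912 to 1550.1 reads (log2 change -1.88 ± 0.21, adjusted p = 0.00064). The BCAA-free TAC libraries of Postn and Thbs4 lay above all sham libraries and below all control diet TAC libraries, and those of Meox1 overlapped control diet sham hearts (1057 to 1513). Of genes for proteoglycans and elastic fibre proteins 15 of 23 fell and 0 rose (median -1.02). They included lumican, Lum (log2 -1.02 ± 0.10), and biglycan, Bgn (-1.46 ± 0.19), which bind collagen fibrils, and the microfibril proteins Mfap5 (-1.54 ± 0.16) and Emilin1 (-1.40 ± 0.17).

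Genes of collagen processing and crosslinking fell in 17 of 21 members (median -0.66), none rising. Lox, the enzyme that crosslinks collagen and elastin, had 8008, 8539.9 and 5369 normalized reads on the control diet and 1727, 976 and 1579.9 on the BCAA-free diet (log2 change -2.37 ± 0.23, adjusted p = 0.000483), against 507 to 645 in control diet sham hearts. Its relative Loxl2 had 5415, 6569 and 4671 and 1793, 1320.1 and 1872 (log2 change -1.74 ± 0.16, adjusted p = 0.000328). Pcolce, which helps trim procollagen, fell too (log2 change -1.22 ± 0.12, adjusted p = 0.000496). Among proteases and their inhibitors 14 of 24 fell, including the proteases Adamts9 (log2 -1.02 ± 0.12) and Mmp23 (-1.07 ± 0.14). The 2 that rose were the inhibitor Timp4 and, named after its value was seen, the gelatinase Mmp9 (log2 1.15 ± 0.33), whose call was lost without control diet TAC 2 or BCAA-free TAC 1, 2 or 3 (highest adjusted p = 0.147). Timp4, the tissue inhibitor of metalloproteinases most characteristic of heart (chr6:115241892-115252205), ran against the list, with 1642, 2214 and 2326 reads on the control diet and 5011, 5108 and 5025 on the BCAA-free diet (log2 change 1.31 ± 0.13, adjusted p = 0.000482). The BCAA-free TAC libraries of Timp4 were within the range of BCAA-free sham hearts, 4706 to 5947.

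Growth factor genes fell in part. In the TGF-beta and activin list 10 of 23 members fell and 0 rose (median -0.43). Tgfb1, the ligand itself, had 2809, 2519.7 and 2514 normalized reads on the control diet and 1562, 1239 and 1547 on the BCAA-free diet (log2 change -0.86 ± 0.12, adjusted p = 0.0016). The stress-induced ligand Gdf15 had 389, 662 and 400.1 and 130.3, 75.4 and 116 (log2 change -2.16 ± 0.26, adjusted p = 0.000989). The secreted Fstl1 (log2 -1.69 ± 0.20) and the activin antagonist Fst (-1.38 ± 0.22) fell as well. In the axis of insulin-like growth factor 6 of 21 fell and 2 rose (median -0.11; 0 higher and 8 lower when scaled to the library total). Igf1, the growth factor, had 3691, 3368 and 2231 reads on the control diet and 1298, 982 and 1357 on the BCAA-free diet (log2 change -1.33 ± 0.19, adjusted p = 0.00206). Its binding proteins Igfbp7 (log2 -1.20 ± 0.12) and Igfbp4 (-0.71 ± 0.14) and the imprinted RNA H19 (-0.68 ± 0.16) fell. The insulin receptor Insr (log2 0.40 ± 0.10) and its adaptor Irs1 (0.69 ± 0.17) were the members that rose, named after their values were seen. TGF-beta list calls numbered 6 and 6 without control diet TAC 1 and 2, and 5 and 6 without BCAA-free TAC 2 and 3. Insulin-like growth factor list calls numbered 4 without control diet TAC 1 and 5, 3 and 3 without BCAA-free TAC 1, 2 and 3. H19 and Insr lost their calls without control diet TAC 1. H19 lost its call without control diet TAC 2. H19 and Insr lost their calls without BCAA-free TAC 1. H19, Insr and Irs1 lost their calls without BCAA-free TAC 2. H19, Insr and Irs1 lost their calls without BCAA-free TAC 3. Among these fits Insr had the highest adjusted p, 0.111.

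General fibroblast markers did not fall as a block. Of 12 markers 5 fell, among them Col1a1, Lum and Mfap5, and 3 rose, among them the dipeptidase Dpep1 (log2 0.78 ± 0.10); scaling to the library total gave 2 higher and 8 lower. The lineage marker Pdgfra had a log2 change of -0.07 (adjusted p = 0.782; called without control diet TAC 3, adjusted p = 0.0494; named after its value was seen). Their summed level was 195794 to 228736 reads on the control diet and 174143 to 185132 on the BCAA-free diet. The reads of Col1a1, Lum and Mfap5, whose falls are given above, are part of these sums. Whether the number of fibroblasts has a part in the matrix falls was not tested. Tubulin and other cytoskeletal genes also fell, in 17 of 27 members (median -0.66). The microtubule-destabilising Stmn1 had 2209.5, 1891 and 1884 normalized reads on the control diet and 740.1, 647 and 719 on the BCAA-free diet (log2 change -1.50 ± 0.11, adjusted p = 0.00025), the latter within the sham range. The intermediate filament gene Vim (log2 -1.28 ± 0.11), Tagln2 (-1.11 ± 0.10) and the tubulin Tubb2b (-1.79 ± 0.17) fell in the same way. Calls of the 4 lists of collagen, matricellular, proteoglycan and collagen-processing genes stayed within 1.5 times of these counts whichever library was left out, as did those of the cytoskeletal list. The protease and inhibitor list had 10 without BCAA-free TAC 2, and the fibroblast marker list 5 without BCAA-free TAC 2.

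Genes of dividing cells had the highest share of called members of the 40 pathway lists. Of 30 genes of mitosis and cytokinesis 29 fell and none rose, with a median log2 change of -2.46; Cenpf, named after its value was seen, did not pass (0.14), and leaving out any single library kept the count at 29. Cdk1, the kinase that drives entry into mitosis (chr10:69335146-69352938), had 899, 811 and 527 normalized reads on the control diet and 91.9, 87.8 and 107 on the BCAA-free diet (log2 change -2.92 ± 0.21, adjusted p = 0.00025). Sham hearts held 204 to 285 reads of Cdk1 on the control diet and 53.7 to 136 on the BCAA-free diet. Top2a, which untangles chromosomes (chr11:98992943-99024189), had 2353, 2233 and 1431 and 320.0, 223 and 318 (log2 change -2.79 ± 0.21, adjusted p = 0.000259). In both genes, BCAA-free TAC hearts lay below the sham hearts of the control diet. Cyclin A2, Ccna2 (log2 -2.87 ± 0.23), and the spindle factor Tpx2 (-2.95 ± 0.23) fell alike. In DNA replication 23 of 33 members fell and 0 rose, by smaller amounts (median -0.67). Mcm5, a subunit of the replicative helicase, had 1099.7, 1073 and 935 reads on the control diet and 328, 329 and 329 on the BCAA-free diet (log2 change -1.65 ± 0.12, adjusted p = 0.00025). The BCAA-free values of Mcm5 were nearly identical in the 3 libraries and below 3 of 3 control diet sham libraries. Mcm6 (log2 -1.17 ± 0.11), Mcm3 (-1.40 ± 0.14) and Uhrf1 (-1.60 ± 0.15), which keeps DNA methylation through replication, fell as well. Which cells were dividing cannot be told from whole hearts.

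Because nearly all of the mitosis genes moved together, their promoters were searched for TTTGAA, the core of the element through which the DREAM complex holds cell cycle genes silent in resting cells. The 300 bases from 250 before the start to 50 after it were read from RefSeq on GRCm38.p6 and searched on both strands. Such a window was found for 25 of the 30 tested members, and 18 of the 25 (72%) held the motif, against 14.7% of 12225 genes with a window. The windows of Cdk1 (chr10:69352863-69353162) and Top2a (chr11:99024140-99024439), both on the minus strand, are shown because these genes are among the members with the smallest p. They are written 5′ to 3′ along the gene with the motif, or its reverse complement, in capitals, and each holds 2 matches.
Cdk1: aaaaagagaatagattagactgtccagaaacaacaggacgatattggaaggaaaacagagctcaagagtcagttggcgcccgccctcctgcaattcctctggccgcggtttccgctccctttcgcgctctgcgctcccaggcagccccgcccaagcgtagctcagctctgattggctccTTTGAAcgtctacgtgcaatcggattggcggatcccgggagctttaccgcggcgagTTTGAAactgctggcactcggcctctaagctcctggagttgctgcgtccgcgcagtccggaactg
Top2a: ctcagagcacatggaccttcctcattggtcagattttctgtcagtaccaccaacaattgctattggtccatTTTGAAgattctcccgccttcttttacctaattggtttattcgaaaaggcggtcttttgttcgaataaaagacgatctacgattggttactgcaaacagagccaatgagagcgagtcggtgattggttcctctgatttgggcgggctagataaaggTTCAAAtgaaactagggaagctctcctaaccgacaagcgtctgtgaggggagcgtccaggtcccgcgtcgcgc
The matches describe these letters only and say nothing of whether the complex bound there. Members were searched whether or not they were called, so the share with the motif describes the list and not the diet effect.

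Interferon-stimulated genes were the most widely lowered immune list. Of 34 tested members 28 fell and none rose, with a median log2 change of -0.89. Isg15, a ubiquitin-like protein made in response to interferon (chr4:156199424-156200818), had 525, 708 and 514 normalized reads on the control diet and 201, 182 and 153 on the BCAA-free diet (log2 change -1.69 ± 0.18, adjusted p = 0.000529). Bst2, which tethers budding viruses to the cell (chr8:71534255-71537456), had 2345, 2268 and 2285 and 1123, 909 and 979.7 (log2 change -1.20 ± 0.11, adjusted p = 0.000307). Sham hearts of the control diet held 1226 to 2028 reads of Bst2 and those of the BCAA-free diet 981 to 1015. Ifi44 had 538, 786 and 573 on the control diet and 226, 183 and 205 on the BCAA-free diet (log2 change -1.61 ± 0.18, adjusted p = 0.00062). Ifi27l2a fell by a similar factor to Bst2 (log2 change -1.12 ± 0.11, adjusted p = 0.000496). No library of the BCAA-free TAC group reached a control diet TAC library in these 4 genes. In sham hearts 9 members fell with the diet and none rose (median -0.63). No interferon gene is in the list, which holds targets only. Calls numbered 19 when BCAA-free TAC 2 or BCAA-free TAC 3 was left out and 30 without control diet TAC 3, within 1.5 times of 28.

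The promoters of these genes were searched for GAAANNGAA, the core shared by interferon-stimulated response elements. Of 25 members with a RefSeq window of 300 bases 16 held it (64%), against 8.81% of 12225 genes. The list was made of interferon targets, and its members were searched whether or not they were called. This share therefore describes the list and not the diet effect, and what binds at the matches was not tested. The windows of Isg15 (chr4:156200769-156201068, minus strand, 3 matches) and Bst2 (chr8:71537423-71537722, minus strand, 2 matches) are given because they too are among the members with the smallest p of their list, written as above with the matches in capitals; matches that overlap form 1 run.
Isg15: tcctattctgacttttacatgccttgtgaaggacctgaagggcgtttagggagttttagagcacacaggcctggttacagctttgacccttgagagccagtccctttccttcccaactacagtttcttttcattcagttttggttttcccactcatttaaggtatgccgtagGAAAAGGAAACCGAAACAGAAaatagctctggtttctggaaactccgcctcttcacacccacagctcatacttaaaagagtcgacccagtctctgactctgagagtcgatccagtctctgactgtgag
Bst2: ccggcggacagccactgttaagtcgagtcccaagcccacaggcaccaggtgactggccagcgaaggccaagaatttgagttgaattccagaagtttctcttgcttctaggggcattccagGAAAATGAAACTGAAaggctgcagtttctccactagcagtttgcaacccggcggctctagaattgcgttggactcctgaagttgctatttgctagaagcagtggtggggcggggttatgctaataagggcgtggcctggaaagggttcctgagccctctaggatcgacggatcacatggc

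Macrophage genes fell with the interferon list. Of 11 macrophage markers 8 fell and none rose (median -0.71), and their summed level went from 32154 to 33642 to 19951 to 26279 reads without overlap. Fcgr1, a receptor for immunoglobulin G, had 386, 508 and 355 normalized reads on the control diet and 171, 161 and 177 on the BCAA-free diet (log2 change -1.28 ± 0.17, adjusted p = 0.00158). The lysosomal protein Cd68 had 834, 972 and 801 and 493, 393 and 483 (log2 change -0.93 ± 0.14, adjusted p = 0.00231). The complement genes C1qa (log2 -0.74 ± 0.13), C1qb (-0.86 ± 0.13) and C1qc (-0.71 ± 0.13), which macrophages make in the heart, fell together. The resident macrophage markers Lyve1, Cd163 and Timd4, named after their values were seen, did not pass, with log2 changes of 0.20, 0.31 and 0.13, although Lyve1 and Cd163 were called higher without control diet TAC 3. The part of macrophage number in the interferon falls was not tested. Neutrophil markers had 0 called members of 6 by limma and 0 by edgeR (1 at an unadjusted p below 0.05, and 4 called without control diet TAC 3), and their summed levels overlapped at 556 to 982 and 626 to 828 reads. Lymphocyte markers had 1 called member of 10, the natural killer cell gene Nkg7 (log2 -1.91 ± 0.43, few reads), which lost its call without control diet TAC 1 or 2 or BCAA-free TAC 2 (highest adjusted p = 0.0691).

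Inflammatory cytokines and chemokines fell in 10 of 35 members and rose in 1 (median -0.66). Galectin 3, Lgals3, a lectin of activated macrophages and fibroblasts, had 1056, 1048 and 887 normalized reads on the control diet and 339.8, 317 and 351 on the BCAA-free diet (log2 change -1.56 ± 0.12, adjusted p = 0.000259). The membrane-bound chemokines Cxcl16 (log2 -1.07 ± 0.14) and Cx3cl1 (-1.07 ± 0.15) fell too. Cxcl14, the member that rose, had 554, 637 and 709 and 1299.9, 1043 and 1129 reads (log2 change 0.87 ± 0.13, adjusted p = 0.00264). Il1b had a log2 change of -0.25 (adjusted p = 0.772) and Ccl2 one of -0.82 (adjusted p = 0.174; called without control diet TAC 1, adjusted p = 0.0242), both named after their values were seen. In the complement list 6 of 23 fell and 2 rose, against 0 higher and 12 lower when scaled to the library total. The chaperone clusterin, Clu (chr14:65968483-65981547), a highly expressed inhibitor of the complement attack complex, had 152424, 152041 and 110741 reads on the control diet and 63462, 59688 and 69676 on the BCAA-free diet (log2 change -1.09 ± 0.15, adjusted p = 0.00163). Clu was above the control diet sham range of 41515 to 43987 in both TAC groups. C3, the central complement protein, was among those that rose (log2 0.52 ± 0.12, named after its value was seen). Cytokine and chemokine calls numbered 7 without control diet TAC 2 and 6 without BCAA-free TAC 2. Complement calls numbered 13 without control diet TAC 3. C3 lost its call without BCAA-free TAC 1. C3 lost its call without BCAA-free TAC 3. Among these fits C3 had the highest adjusted p, 0.0801.

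**Figure D4:**
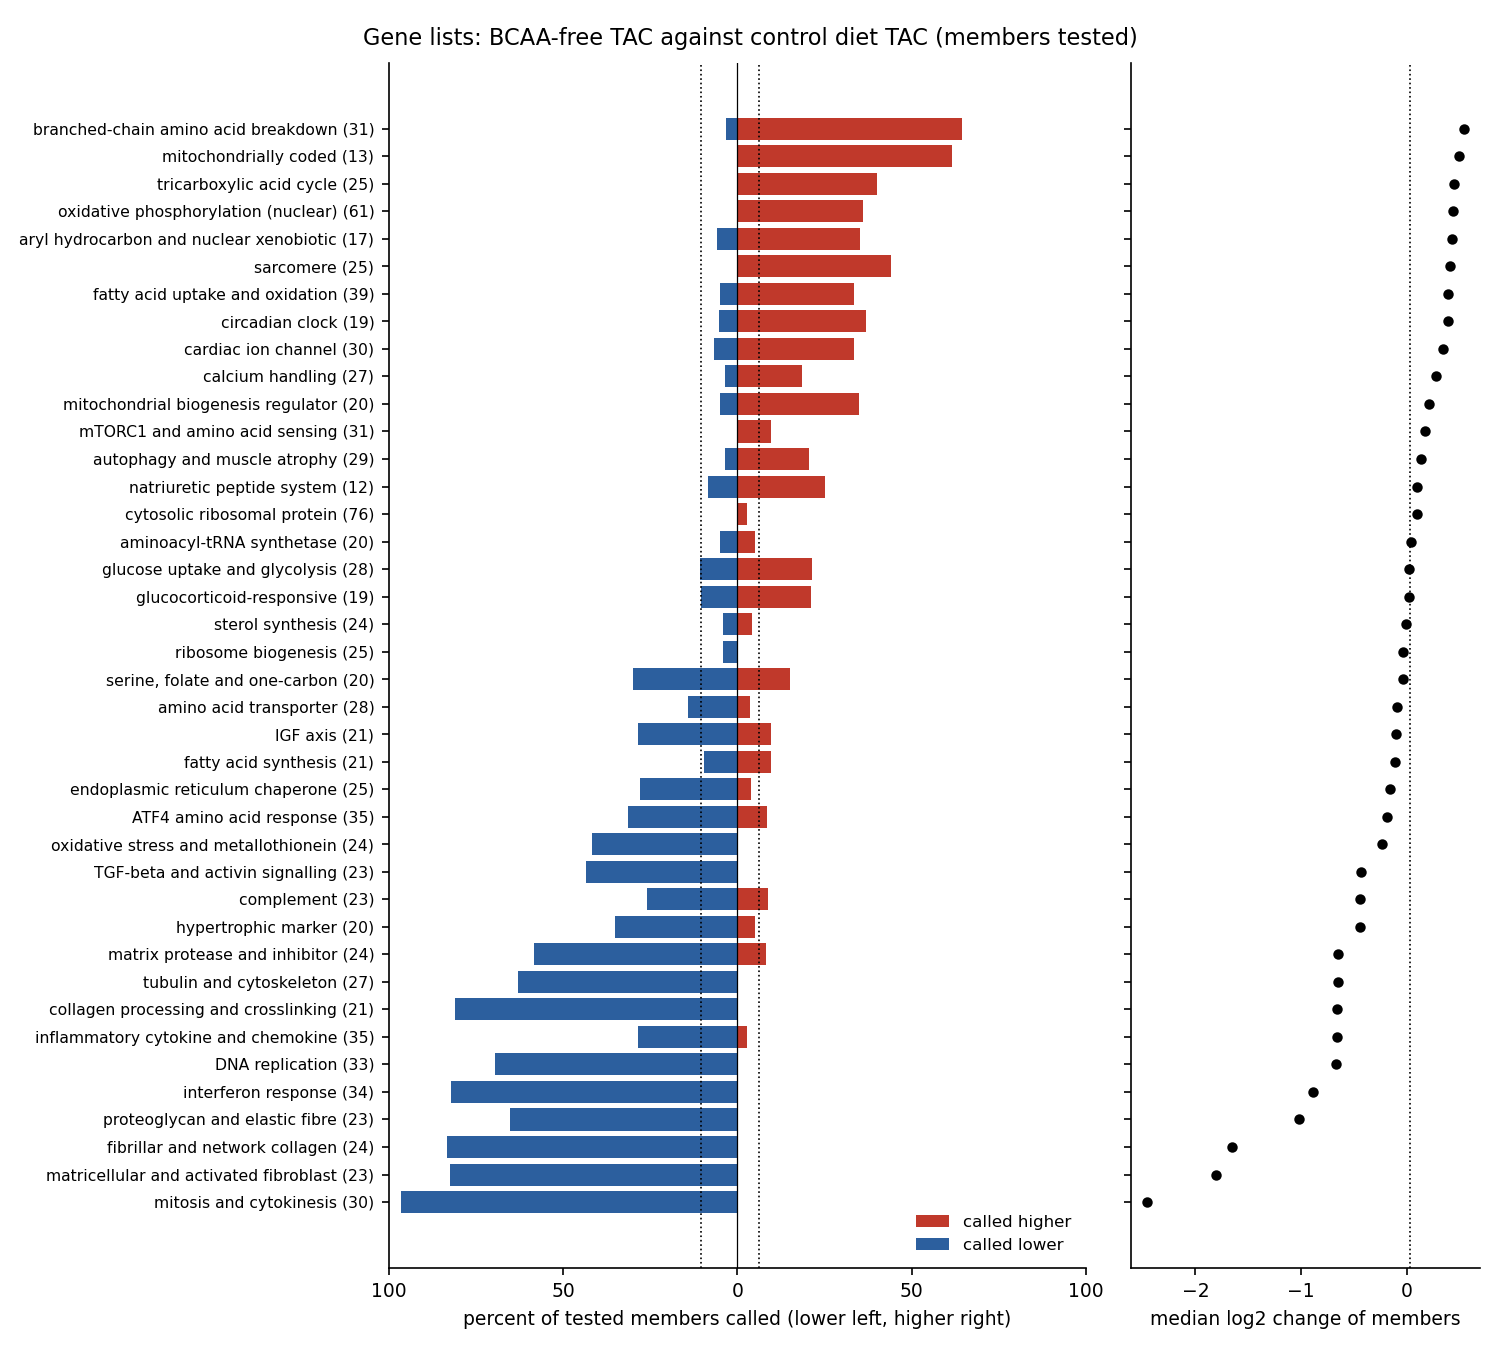
For 40 lists of genes, with the number of tested members in brackets, the left panel shows the percent of members called higher (red, to the right) or lower (blue, to the left) on the BCAA-free diet in TAC hearts, and the right panel the median log2 change of the members. Dotted lines mark the same for all tested genes (6.23% higher, 10.5% lower, median 0.02); BCAA breakdown has the highest median and mitosis the lowest.

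Most genes that break down BCAA rose. Of 31 tested members 20 rose and 1 fell, with a median log2 change of 0.54, the highest of the 40 pathway lists. Bckdha, the catalytic subunit of the keto acid dehydrogenase (chr7:25629946-25658981), had 5059.7, 4523 and 5065 normalized reads on the control diet and 8259, 8663 and 8092 on the BCAA-free diet (log2 change 0.77 ± 0.09, adjusted p = 0.000927). The phosphatase Ppm1k, which activates the complex (chr6:57506502-57535468), had 4636, 3843 and 4949 and 7519, 9074 and 8012 (log2 change 0.88 ± 0.12, adjusted p = 0.00176). Ivd, which takes the next step in leucine breakdown, had 18530.5, 17991 and 18013 and 28603, 35399 and 30837 (log2 change 0.79 ± 0.11, adjusted p = 0.00182). Klf15, a transcription factor that controls this pathway in muscle, had 3157, 2707 and 3368 and 6311, 5419 and 5041 (log2 change 0.86 ± 0.12, adjusted p = 0.00182). In these 4 genes the groups did not overlap and control diet TAC was the lowest of the 4 groups by mean. The BCAA-free TAC libraries of Bckdha overlapped control diet sham hearts (8603 to 9154). The kinase Bckdk, which inactivates the complex, did not pass (log2 change 0.26 ± 0.12, adjusted p = 0.163), with 5091, 4657 and 6132 and 5906, 6651 and 6364 reads that overlapped. The mitochondrial aminotransferase Bcat2 did not pass either (log2 change 0.33 ± 0.10, adjusted p = 0.0621). Without control diet TAC 3 both were called higher (adjusted p = 0.00366 for Bckdk and 0.00167 for Bcat2). The cytosolic Bcat1 was the 1 member that fell, from 336, 361 and 269.5 to 142, 100.2 and 122 reads (log2 change -1.40 ± 0.19, adjusted p = 0.00176). Calls numbered 12 without BCAA-free TAC 2, and 15 higher and 1 lower under scaling to the library total.

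The genes that Atf4 switches on when amino acids run short did not rise as a group. Of 35 tested members 11 fell and 3 rose (median -0.19). Atf4 itself did not pass, with 6144, 7066 and 7577 normalized reads on the control diet and 7078, 5902 and 6123 on the BCAA-free diet (log2 change -0.12 ± 0.11, adjusted p = 0.51). Asparagine synthetase, Asns, a hallmark target of this response, had 469, 433 and 574 and 270.0, 262 and 277 (log2 change -0.85 ± 0.15, adjusted p = 0.00489). The mitochondrial folate enzyme Mthfd2 had 1443, 1009 and 2278 and 399, 311 and 351 (log2 change -2.08 ± 0.25, adjusted p = 0.000917). Pycr1 of proline synthesis (log2 -1.31 ± 0.18), Phgdh, the first enzyme of serine synthesis (-1.10 ± 0.19), and the leucine importer Slc7a5 (-0.78 ± 0.14) fell, and no library of the BCAA-free diet overlapped one of the control diet in these genes. Vldlr, a lipoprotein receptor, rose (log2 0.69 ± 0.11), as did Cth (1.65 ± 0.30) and Gpt2 (0.64 ± 0.13, call lost without BCAA-free TAC 2 or 3 (highest adjusted p = 0.0563)), the last 2 named after their values were seen. Fgf21, a hormone gene that this response can induce, was not among the tested genes. In the list of serine, folate and one-carbon genes 6 of 20 fell, with thymidylate synthase, Tyms (-1.61 ± 0.19), beside Mthfd2 and Phgdh. Of the rest 3 rose, Gnmt, Mtr (log2 0.75 ± 0.14) and Gart (0.34 ± 0.09, call lost without control diet TAC 1 or 2 or BCAA-free TAC 1, 2 or 3 (highest adjusted p = 0.151)), the latter pair named after their values were seen. The split was 2 higher and 8 lower when scaled to the library total. Gnmt had 73.4, 64.8 and 124 reads on the control diet and 244, 332 and 243 on the BCAA-free diet (log2 change 1.68 ± 0.26, adjusted p = 0.00294).

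Transporters and sensors of amino acids changed in few members. Of 28 amino acid transporters 4 fell, including Slc7a5, Slc1a3 (log2 -1.16 ± 0.24) and Slc1a4 (-0.63 ± 0.16), and 1 rose, Slc36a2 (0.57 ± 0.12). Slc7a5 had 794, 959.8 and 752 normalized reads on the control diet and 520.2, 425 and 510.0 on the BCAA-free diet. In the mTORC1 list 3 of 31 rose, the sestrin Sesn1 (0.50 ± 0.11), of a family that senses leucine, the GTPase Rragd (0.46 ± 0.10) and the inhibitor Tsc1 (0.47 ± 0.14), and none fell. The median was 0.17. It turned to -0.06 under scaling to the library total, where 0 higher and 2 lower members were called. Of 20 tRNA synthetases 1 rose, Kars for lysine (0.32 ± 0.09), and 1 fell, Vars for valine (-0.44 ± 0.10). The synthetases for leucine and isoleucine, Lars and Iars, had log2 changes of 0.27 and 0.15 and did not pass, named after their values were seen (Lars called without control diet TAC 3, adjusted p = 0.00229). The median of the synthetases, 0.03, turned to -0.20 under scaling to the library total, with 0 higher and 4 lower called, and the transporters had 0 higher and 9 lower. Vars had 3477, 3184 and 3662 and 2544, 2358 and 2728 reads (log2 change -0.44 ± 0.10, adjusted p = 0.0168). In the autophagy and atrophy list 6 of 29 rose and 1 fell, with a median of 0.13 that turned to -0.10 under scaling to the library total, where 1 higher and 8 lower members were called. The muscle ubiquitin ligase Trim63 (0.50 ± 0.10), the transcription factor Foxo3 that drives it (0.46 ± 0.10) and Fbxo31 (0.55 ± 0.11) were among those that rose. The lysosomal protease Ctsb was the member that fell (-0.43 ± 0.10, named after its value was seen). These calls depended on single libraries. Transporter calls numbered 3, 3 and 11 without control diet TAC 1, 2 and 3, and 2 and 2 without BCAA-free TAC 2 and 3. mTORC1 list calls numbered 0 and 14 without control diet TAC 1 and 3, and 1 and 0 without BCAA-free TAC 1 and 2. Synthetase calls numbered 0, 1 and 6 without control diet TAC 1, 2 and 3, and 0, 0 and 1 without BCAA-free TAC 1, 2 and 3. Autophagy list calls numbered 11 without control diet TAC 3 and 3, 1 and 2 without BCAA-free TAC 1, 2 and 3. Sesn1, Rragd, Tsc1, Kars, Vars, Slc1a4 and Ctsb lost their calls without control diet TAC 1. Kars and Slc1a4 lost their calls without control diet TAC 2. Sesn1, Rragd, Tsc1, Kars, Vars, Trim63 and Ctsb lost their calls without BCAA-free TAC 1. Sesn1, Rragd, Tsc1, Kars, Vars, Slc1a4, Slc36a2, Trim63, Foxo3, Fbxo31 and Ctsb lost their calls without BCAA-free TAC 2. Tsc1, Kars, Slc1a4, Slc36a2, Foxo3, Fbxo31 and Ctsb lost their calls without BCAA-free TAC 3. Among these fits Kars had the highest adjusted p, 0.171.

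Part of the mitochondrial energy genes rose, and no member of the nuclear oxidative phosphorylation, mitochondrially coded and tricarboxylic acid cycle lists fell. Of 61 nuclear genes of oxidative phosphorylation 22 rose (median 0.43). Cox7a1, the heart form of a cytochrome oxidase subunit, had 36219, 32432 and 48934 normalized reads on the control diet and 70388, 73728 and 63715 on the BCAA-free diet (log2 change 0.84 ± 0.16, adjusted p = 0.00672). Atp5k (log2 0.74 ± 0.12), Cox7b (0.68 ± 0.13) and the succinate dehydrogenase subunit Sdha (0.59 ± 0.12) rose too. Of 13 protein genes coded in mitochondria 8 rose (median 0.49). The ATP synthase subunit mt-Atp6 had 1869.6, 1631 and 1856 reads on the control diet and 3061, 2672 and 3337 on the BCAA-free diet (log2 change 0.76 ± 0.11, adjusted p = 0.00229). Its neighbour mt-Atp8, which overlaps it on the genome so that reads of the pair may be shared, had 619, 565 and 381 and 1001, 989 and 1079 (log2 change 1.00 ± 0.17, adjusted p = 0.00503). The dehydrogenase subunits mt-Nd5 (0.60 ± 0.15) and mt-Nd2 (0.49 ± 0.13) rose. In the tricarboxylic acid cycle 10 of 25 rose (median 0.44). Isocitrate dehydrogenase Idh2 had 92606, 86109 and 105638 and 168296, 173381 and 153848 (log2 change 0.80 ± 0.12, adjusted p = 0.00276), and the succinate-CoA ligase Suclg2 (0.61 ± 0.10) and the pyruvate carrier subunit Mpc1 (0.58 ± 0.12) rose. Scaling to the library total left 10 higher and 0 lower calls in oxidative phosphorylation, 2 higher and 0 lower among the mitochondrially coded genes and 6 higher and 0 lower in the tricarboxylic acid cycle. The groups did not overlap in any of these named genes. The mitochondrial share of reads given above sums the mitochondrially coded genes, so for them it is no separate observation.

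Fatty acid uptake and oxidation rose in 13 of 39 members and fell in 2 (median 0.39); under scaling to the library total the split was 3 higher and 5 lower, with the median still positive. Cpt1b, which admits fatty acids to mitochondria, had 7322, 7896 and 5962 normalized reads on the control diet and 10241, 12136 and 12697 on the BCAA-free diet (log2 change 0.73 ± 0.13, adjusted p = 0.00582). Hadha of the trifunctional protein rose (log2 0.58 ± 0.12), while the acyl-CoA synthetase Acsl5 (-0.65 ± 0.10) and the uncoupling protein Ucp2 (-0.86 ± 0.16) fell. Among regulators of mitochondria 7 of 20 rose and 1 fell, and their median was 0.20. These turned to 1 higher and 2 lower with a median of -0.03 under scaling to the library total. Ppara, the nuclear receptor for fatty acids, had 1631, 1793 and 925 and 2310.0, 2913 and 2832 (log2 change 0.94 ± 0.22, adjusted p = 0.0188). The coactivator Ppargc1a had 6089, 6959 and 8513 and 9769, 10139 and 9461 (log2 change 0.46 ± 0.13, adjusted p = 0.0349). The muscle regulator Perm1 rose as well (log2 0.53 ± 0.10). Hif1a, an oxygen-regulated transcription factor that favours glycolysis, fell (-0.53 ± 0.11). Glucose uptake and glycolysis was mixed, with 6 of 28 higher and 3 lower (median 0.02), and 3 higher and 11 lower (median -0.21) under scaling to the library total. The insulin-responsive transporter Slc2a4 (log2 0.61 ± 0.12), Pfkfb2 (0.57 ± 0.10) and the pyruvate dehydrogenase kinase Pdk2 (0.53 ± 0.11) rose, and the lactate exporter Slc16a3 fell (-0.85 ± 0.14).

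The mitochondrial counts depended on single libraries. Oxidative phosphorylation calls numbered 5, 10 and 59 without control diet TAC 1, 2 and 3, and 6, 2 and 9 without BCAA-free TAC 1, 2 and 3. Mitochondrially coded calls numbered 3 and 3 without control diet TAC 1 and 2, and 2, 2 and 2 without BCAA-free TAC 1, 2 and 3. Tricarboxylic acid cycle calls numbered 4 and 25 without control diet TAC 1 and 3, and 6, 2 and 3 without BCAA-free TAC 1, 2 and 3. Fatty acid oxidation calls numbered 6, 6 and 32 without control diet TAC 1, 2 and 3, and 8, 3 and 3 without BCAA-free TAC 1, 2 and 3. Mitochondrial regulator calls numbered 3, 4 and 13 without control diet TAC 1, 2 and 3, and 4, 0 and 1 without BCAA-free TAC 1, 2 and 3. Glycolysis calls numbered 4 and 16 without control diet TAC 1 and 3, and 2 and 4 without BCAA-free TAC 2 and 3. mt-Nd5, mt-Nd2 and Ppargc1a lost their calls without control diet TAC 1. mt-Nd2 and Ppargc1a lost their calls without control diet TAC 2. mt-Nd5, mt-Nd2 and Ppargc1a lost their calls without BCAA-free TAC 1. Cox7b, Sdha, mt-Nd5, mt-Nd2, Mpc1, Hadha, Ppara, Ppargc1a, Perm1, Hif1a, Slc2a4 and Pdk2 lost their calls without BCAA-free TAC 2. Sdha, mt-Nd5, mt-Nd2, Hadha, Ppara, Ppargc1a, Hif1a and Pdk2 lost their calls without BCAA-free TAC 3. The highest adjusted p among these was 0.151, for mt-Nd2. Cox7a1, Atp5k, mt-Atp6, mt-Atp8, Idh2, Suclg2, Cpt1b, Acsl5, Ucp2, Pfkfb2 and Slc16a3 passed in all 6 of those fits.

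Stress and secretory genes fell in part. Of 24 oxidative stress and metallothionein genes 10 fell and none rose (median -0.24). Haem oxygenase, Hmox1, had 1769, 1603 and 1927 normalized reads on the control diet and 985, 666 and 1052 on the BCAA-free diet (log2 change -0.99 ± 0.17, adjusted p = 0.00428). The glutathione synthesis subunit Gclm (log2 -0.62 ± 0.11), the plasma glutathione peroxidase Gpx3 (-0.78 ± 0.14), the sulfiredoxin Srxn1 (-0.80 ± 0.17) and the metallothionein Mt2 (-0.88 ± 0.18) fell. Of 25 endoplasmic reticulum chaperones 7 fell, among them the disulfide isomerases Pdia4 (-0.59 ± 0.09) and Pdia3 (-0.58 ± 0.10) and the degradation factor Edem1 (-0.66 ± 0.11), and 1 rose, Herpud1 (0.61 ± 0.12). Pdia4 had 3781, 3512 and 3642 reads on the control diet and 2478, 2309 and 2499.8 on the BCAA-free diet. The central chaperone Hspa5, named after its value was seen, had a log2 change of 0.13 and did not pass (called without control diet TAC 3, adjusted p = 0.0248). Sterol synthesis had 1 member higher, Fdft1 (0.50 ± 0.14), and 1 lower of 24. Fatty acid synthesis had 2 higher, Dgat2 (0.74 ± 0.16) and Thrsp (0.52 ± 0.16), and 2 lower, Elovl1 (-0.51 ± 0.10) and Scd2 (-0.53 ± 0.15), of 21. With the other scaling sterol synthesis had 0 higher and 7 lower and fatty acid synthesis 1 higher and 7 lower, so that their even splits became one-sided. The protein-making machinery changed in few members: 2 of 76 cytosolic ribosomal protein genes rose, Rps29 (0.46 ± 0.12) and Rps27 (0.55 ± 0.16), with a median of 0.09 that turned to -0.14 under scaling to the library total (0 higher and 4 lower called). Of 25 ribosome biogenesis genes the growth factor target Myc alone fell (-1.09 ± 0.32). Oxidative stress calls numbered 6 and 16 without control diet TAC 1 and 3, and 5, 3 and 6 without BCAA-free TAC 1, 2 and 3. Chaperone calls numbered 4 without control diet TAC 1 and 5, 4 and 4 without BCAA-free TAC 1, 2 and 3. Sterol synthesis calls numbered 0, 0 and 9 without control diet TAC 1, 2 and 3, and 0, 0 and 0 without BCAA-free TAC 1, 2 and 3. Fatty acid synthesis calls numbered 1, 2 and 8 without control diet TAC 1, 2 and 3, and 2, 1 and 1 without BCAA-free TAC 1, 2 and 3. Ribosomal protein calls numbered 0, 0 and 30 without control diet TAC 1, 2 and 3, and 0, 0 and 1 without BCAA-free TAC 1, 2 and 3. Ribosome biogenesis calls numbered 2 without control diet TAC 3 and 0 and 0 without BCAA-free TAC 2 and 3. Fdft1, Dgat2, Thrsp, Scd2, Rps29 and Rps27 lost their calls without control diet TAC 1. Fdft1, Thrsp, Scd2, Rps29, Rps27 and Myc lost their calls without control diet TAC 2. Myc lost its call without control diet TAC 3. Fdft1, Thrsp, Scd2, Rps29 and Rps27 lost their calls without BCAA-free TAC 1. Srxn1, Mt2, Fdft1, Dgat2, Thrsp, Scd2, Rps29, Rps27 and Myc lost their calls without BCAA-free TAC 2. Mt2, Fdft1, Dgat2, Thrsp, Scd2, Rps29 and Myc lost their calls without BCAA-free TAC 3. Among these fits Myc had the highest adjusted p, 0.254.

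Clock genes changed in part on the BCAA-free diet. Of 19 clock genes 7 rose and 1 fell (median 0.39), and 3 higher and 2 lower were called under scaling to the library total. Hlf, a clock-driven transcription factor, had 1318, 1578 and 1521 normalized reads on the control diet and 2360.0, 3194 and 3429 on the BCAA-free diet (log2 change 1.01 ± 0.15, adjusted p = 0.00208). Its relative Tef (log2 0.73 ± 0.12) and the period genes Per3 (0.66 ± 0.12) and Per2 (0.62 ± 0.14) rose as well. The clock repressor Bhlhe41 was the member that fell (-0.37 ± 0.11, named after its value was seen). The time of day at which hearts were taken is not given in the sources used here. In control diet sham hearts the same genes spread widely, from 558 to 2806 reads for Per2 and from 1547 to 3661 for Hlf. Glucocorticoid-responsive genes rose in 4 of 19 members, among them Klf15, Sult1a1 (log2 0.86 ± 0.10) and Hsd11b1 (0.93 ± 0.19), which regenerates active glucocorticoid, and fell in 2, Mt2 and Fkbp5 (-0.48 ± 0.12, named after its value was seen). Their median of 0.01 turned to -0.22 under scaling to the library total, with 3 higher and 6 lower called. Of 17 xenobiotic genes 6 rose and 1 fell (4 higher and 2 lower with the other scaling). Beside Cyp1a1 and Inmt, the flavin monooxygenase Fmo2 had 1977, 1963 and 1745 and 4732, 5591 and 5288 reads (log2 change 1.46 ± 0.10, adjusted p = 0.000248). The carboxylesterase Ces1d had 4787, 2873 and 3645 and 6535, 10546 and 9502 (log2 change 1.24 ± 0.21, adjusted p = 0.00442). Tiparp, another target of the aryl hydrocarbon receptor, was the member that fell (log2 -0.45 ± 0.13), and the receptor Ahr itself, like Tiparp named after its value was seen, did not pass (0.52). Clock calls numbered 4 and 5 without control diet TAC 1 and 2, and 4 and 3 without BCAA-free TAC 2 and 3. Glucocorticoid list calls numbered 3 without BCAA-free TAC 2. Xenobiotic list calls numbered 4 and 4 without BCAA-free TAC 2 and 3. Per2, Fkbp5 and Tiparp lost their calls without control diet TAC 1. Bhlhe41 and Tiparp lost their calls without control diet TAC 2. Ces1d lost its call without control diet TAC 3. Hsd11b1, Bhlhe41 and Fkbp5 lost their calls without BCAA-free TAC 1. Bhlhe41, Fkbp5 and Tiparp lost their calls without BCAA-free TAC 2. Per2, Bhlhe41, Fkbp5 and Tiparp lost their calls without BCAA-free TAC 3. The highest adjusted p among these was 0.193, for Tiparp.

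Markers of the other cell types of the heart changed in some lists and not in others. Of 12 endothelial markers the water channel Aqp1 rose and the rest did not pass, and the summed level was 141113 to 170591 reads on the control diet and 161926 to 170613 on the BCAA-free diet. Aqp1 had 18269.7, 23027 and 19823 normalized reads on the control diet and 35344, 33014 and 35133 on the BCAA-free diet (log2 change 0.77 ± 0.12, adjusted p = 0.00242), the latter at the sham level of 29344 to 41409.9. Of 10 markers of smooth muscle and pericytes 2 rose, Abcc9 and Kcnj8, and 2 fell, Cspg4 (log2 -0.54 ± 0.12) and calponin, Cnn1 (-0.88 ± 0.20), with summed levels that overlapped (84981 to 116057 and 110478 to 115733). Of 8 epicardial and mesothelial markers the keratins Krt18 (-2.89 ± 0.30) and Krt8 (-1.51 ± 0.27) and the transcription factor Wt1 (-0.98 ± 0.16) fell. Upk3b (0.86 ± 0.23) and Msln (0.95 ± 0.28, named after its value was seen) rose. The summed level of this list was 1519.7 to 1753 reads on the control diet and 899 to 1092 on the BCAA-free diet, without overlap, while its median log2 change was 0.84. Krt18 had 632, 530.3 and 426 reads on the control diet and 115, 59.6 and 48.8 on the BCAA-free diet, and sham hearts of the control diet 49.0 to 50.7. Adipocyte and red blood cell markers had 0 called members by limma and by edgeR of 10 and 6 (0 and 1 at an unadjusted p below 0.05), and their summed levels overlapped. The fast skeletal muscle myosins Myh1, Myh2 and Myh4 and the 6 thymus markers were not among the tested genes. Of skeletal muscle genes Pvalb rose (1.05 ± 0.29) and Tnnt3 fell (-2.15 ± 0.38). With each library scaled to its total, calls were 1 higher and 2 lower in the endothelial list, 1 higher and 3 lower in the smooth muscle and pericyte list, 0 higher and 3 lower in the epicardial list and 0 higher and 2 lower in the skeletal muscle list, where the median turned from 0.19 to -0.04. The lung marker Sftpb fell at low level (-1.44 ± 0.34), and the Schwann cell marker S100b fell (-0.59 ± 0.17). Endothelial calls numbered 5 without control diet TAC 3. Smooth muscle and pericyte calls numbered 1 without control diet TAC 1 and 2 without BCAA-free TAC 2. Epicardial calls numbered 3 without control diet TAC 2 and 3 and 3 without BCAA-free TAC 2 and 3. Lymphocyte calls numbered 0, 0 and 3 without control diet TAC 1, 2 and 3, and 0 without BCAA-free TAC 2. Nerve calls numbered 0, 0 and 3 without control diet TAC 1, 2 and 3, and 0, 0 and 0 without BCAA-free TAC 1, 2 and 3. Skeletal muscle calls numbered 1 without control diet TAC 2 and 1 and 1 without BCAA-free TAC 1 and 2. Red blood cell calls numbered 1 without control diet TAC 3. Kcnj8, Pvalb, Cspg4, Cnn1, Msln, Sftpb and S100b lost their calls without control diet TAC 1. Kcnj8, Pvalb, Upk3b, Msln, Sftpb and S100b lost their calls without control diet TAC 2. Kcnj8, Pvalb and S100b lost their calls without BCAA-free TAC 1. Kcnj8, Pvalb, Cspg4, Upk3b, Msln, Sftpb and S100b lost their calls without BCAA-free TAC 2. Upk3b, Msln, Sftpb and S100b lost their calls without BCAA-free TAC 3. The highest adjusted p among these was 0.165, for Pvalb.

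Fewer genes changed with diet in sham hearts. There it changed 633 of 17862 genes (3.54%), with 227 higher (1.27%) and 406 lower (2.27%), and over the 17529 genes tested in both kinds of heart the median size of the log2 change was 0.249 after TAC and 0.136 after sham surgery. The groups hold different libraries, so these sizes also carry the spread of each. Of the 2961 TAC calls also tested in sham hearts 425 were called there (14.4% of the TAC calls and 67.1% of the sham calls), 423 in the same direction, 141 higher and 282 lower. Across genes, which are not independent replicates, the changes had a Pearson r of 0.541. A fit of all 12 libraries tested the difference itself and called 115 of 17569 genes (0.655%): 86 had a more negative diet effect after TAC and 29 a more positive one. The number was 73, 46 and 1733 without control diet TAC 1, 2 and 3, 16 and 16 without BCAA-free TAC 2 and 3. It was 53, 23 and 25 without control diet sham 1, 2 and 3, and 23, 15 and 61 without BCAA-free sham 1, 2 and 3. The sham count likewise moved to 1071 and 184 without control diet sham 2 and 3 and to 50, 225 and 137 without BCAA-free sham 1, 2 and 3. Among the genes with the smallest p for the difference were several that were far higher in control diet TAC hearts than in sham hearts. Serpinb1a, an inhibitor of neutrophil proteases, had 2289, 2669 and 1501 normalized reads in control diet TAC hearts and 282, 239.7 and 359 in BCAA-free TAC hearts. It had 247 to 324 and 203 to 245 in the sham hearts of these diets (difference -2.58 ± 0.29, adjusted p = 0.00705). Tspo, a mitochondrial outer membrane protein, had 6329, 5744 and 6151 and 3446, 2898 and 2850.0 after TAC, against 2432 to 2828 and 2550.3 to 2598 after sham surgery (difference -0.98 ± 0.12, adjusted p = 0.0107). Star, which carries cholesterol into mitochondria, had 1386, 1561 and 1120.5 and 467, 418 and 561 after TAC, against 249 to 287 and 244 to 285 (difference -1.46 ± 0.21, adjusted p = 0.0107). The sham hearts of the diets overlapped in Tspo and Star, and in all 3 genes the BCAA-free TAC hearts lay closer to sham than the control diet TAC hearts did.

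In the other direction, Cdkn1c, an inhibitor of cell division, had 803, 747 and 913 normalized reads in control diet TAC hearts and 1562, 1676 and 1697 in BCAA-free TAC hearts. It had 1672 to 2046 and 1701 to 2149.8 in the sham hearts of these diets (difference 0.96 ± 0.15, adjusted p = 0.0167). Ogdhl, a relative of a tricarboxylic acid cycle enzyme, had 9368, 8978 and 9657 and 16275, 19069.7 and 18849 after TAC, with 14297 to 16358 and 15273 to 18668 after sham surgery (difference 0.85 ± 0.13, adjusted p = 0.0166). Hmcn2, a matrix protein gene, rose with the diet after TAC (log2 change 0.69 ± 0.13, adjusted p = 0.00762) and fell with it after sham surgery (log2 -0.60, adjusted p = 0.048), so that the effects had opposite signs (difference 1.28 ± 0.20, adjusted p = 0.0167). By list, the difference was called for 5 of 24 collagen chains, 5 of 33 replication genes and 3 of 23 matricellular genes, against 0.655% of all genes. It was called for 0 of 30 mitosis genes and 0 of 34 interferon targets, whose median differences were -1.20 and -0.22. In sham hearts the diet lowered 14 of the 30 mitosis genes, 11 of the 24 collagen chains and 9 of the 34 interferon targets. Of all genes tested in sham hearts 2.27% were lowered. Cenpf, the mitosis gene that did not pass after TAC, rose in sham hearts (log2 0.57, adjusted p = 0.0176).

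**Figure D5:**
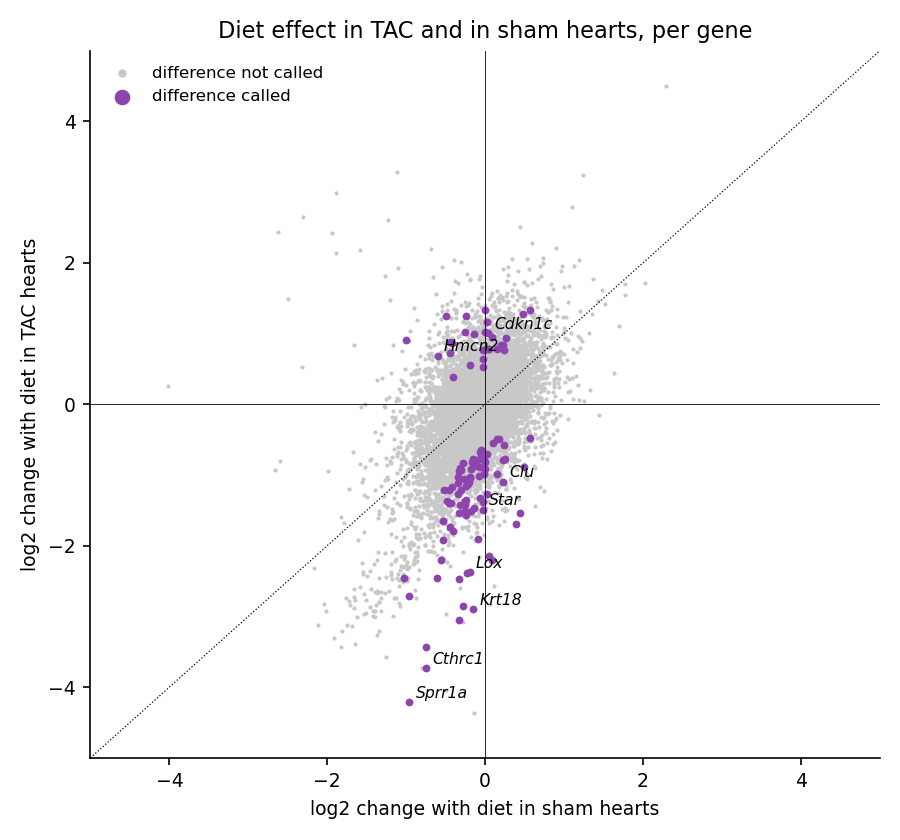
Each of 17529 genes is placed by its log2 change with the BCAA-free diet in sham hearts (x axis) and in TAC hearts (y axis); the dotted line marks equal effects. Purple points are genes whose diet effects differed in the fit of all 12 libraries, most of them below the line, where the diet effect was more negative after TAC.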

How the data were processed

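Heart poly(A) RNA was sequenced in 12 libraries, 3 in each of 4 groups of diet and surgery. Per the submitters' processing notes, reads were handled with Trimmomatic 0.36, STAR 2.5.2b, Subread 1.5.2 and DESeq2, and the builds GRCm38 and mm10 are named; the annotation and the strand setting were not given in the sources read, so overlapping and antisense genes may share reads. The authors deposited, for each pair of groups, normalized read counts per library (a signal scaled by size factors) with a log2 fold change and p-values of their own. Dividing by the step that 1 read is worth gave whole reads, within 0.0001 read, for 100.0% of values, and the TAC table holds genes with at least 61 reads over its 6 libraries. Another 9 columns of per-sample values, the same libraries in other tables, were not used.

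limma 3.58.1 (R 4.3.3; trend, robust) was fitted to log2(normalized read count + 1) of the 6 TAC libraries alone, over genes with a mean of at least 10, with Benjamini-Hochberg adjustment over all genes tested. Fold changes are on that scale, which understates those of low genes. Sham hearts were fitted alike, and a fit of 12 libraries, on size factors set jointly (within 0.0107 of the deposited ones on the log2 scale in the TAC libraries), tested the difference of the diet effects; sham levels printed beside TAC levels use the joint scale. The method was also run on simulated reads with known changes and no outlying library, and no result given here rests on that run. Alternatives were pseudocounts of 0.5 and 5, a minimum mean of 50 or none, edgeR 4.0.16 and DESeq2 1.42.0 on the recovered reads, TMM scaling, scaling to the library total, the replicate number as a block, a fit of all 12 libraries and leaving out each library.

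The members and the 56 lists (40 of pathways, 15 of cell type markers, 1 of RNAs without a poly(A) tail) were chosen with earlier results of these data known. Genes were named by rule: the 12 largest rises and falls with a mean of at least 50 and groups that do not overlap, skipping predicted genes and pseudogenes; the 4 called members of each list with the smallest p; a set of textbook genes; and the 5 genes per direction with the smallest p for the difference. Of the 200 genes so named 194 were called, 137 of them in all 6 fits that left out a library. Some genes that the rule names are not reported here. Genes named outside this rule were chosen after their values were seen, and this is said where they appear. Replicates sharing a number in both diets did not deviate together (correlations of -0.17, -0.0964 and -0.0854 in TAC hearts), so the numbers were not taken to pair the samples. Promoter windows came from RefSeq on GRCm38.p6.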

Additional observations from a re-analysis of the deposited data

Results flagged for a closer look

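The diet effect differed between TAC and sham hearts in 115 genes by the test of the difference in the fit of all 12 libraries (limma, adjusted p below 0.05). The values below are the log2 diet effect after TAC minus that after sham surgery, for the genes named in the text that passed.

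Most were genes with a more negative diet effect after TAC. The difference was -3.27 for Sprr1a, and -1.27 for Uchl1 and -0.93 for Fhl1 of the cardiac growth markers. For the chaperone Clu it was -1.33. In matrix genes it was -2.99 for Cthrc1, -2.69 for Col9a2, -1.31 for Col16a1, -1.39 for Col8a1, -2.14 for Thbs4, -1.21 for Mfap5, -2.18 for Lox, -0.76 for Pcolce and -0.86 for Mmp23. In helicase subunits it was -1.12 for Mcm5, -0.76 for Mcm6 and -0.95 for Mcm3. For cytoskeletal genes it was -1.25 for Stmn1, -1.39 for Tubb2b and -2.75 for Krt18. For secreted and protective proteins it was -1.32 for Lgals3, -1.02 for Gpx3, -1.38 for Mt2 and -2.58 for Serpinb1a. In Tspo it was -0.98, in Star -1.46 and in Fkbp5 -1.06. After sham surgery the log2 diet effect was above 0 and did not pass in Clu (0.23), Gpx3 (0.23), Mt2 (0.49) and Fkbp5 (0.57), whereas all 4 genes fell after TAC.

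The genes with a more positive effect after TAC were Bckdha at 0.52, mt-Atp8 at 1.13, Perm1 at 0.55, Cxcl14 at 1.28, Aqp1 at 0.77, mt-Tf at 1.74, Ogdhl at 0.85, Cdkn1c at 0.96 and Hmcn2 at 1.28. In Cxcl14 the log2 diet effect was 0.87 after TAC and -0.42 after sham surgery, where it did not pass (adjusted p = 0.0544), and the sham effects of mt-Atp8 (-0.13) and mt-Tf (-0.50) were also below 0 without passing.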

How the results depend on the processing

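No named gene turned direction with its call under any alternative run. With the replicate block the TAC calls numbered 2037 (630 higher, 1407 lower), the sham calls 276 and the differences 44, and 31 of 229 genes named by the rule or in the text lost their call; since the numbers do not pair the samples, this describes a fit with fewer residual degrees of freedom. Scaling to the library total gave 385 higher and 4116 lower TAC calls and 1012 differences, and 33 of those genes lost their call. A fit of all 12 libraries gave 2035 higher. DESeq2 gave 1522 sham calls and 817 differences, while edgeR gave 3059 TAC calls, 700 sham calls and 140 differences. Leaving out 1 library gave 1192 to 6025 TAC calls, 268 to 2905 of them higher and 924 to 3120 lower, 50 to 1071 sham calls and 15 to 1733 differences; the cause was not tested. The other pseudocounts and filters and TMM scaling kept all 3 counts within 1.5 times. Of the 229 genes, 63 lost their call without BCAA-free TAC 2 and 2 without control diet TAC 3. Each TAC library held at least 76458091 reads, and the effect of depth itself was not tested.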

Other observations

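With the deposited scaling, noncoding genes leaned the other way from protein-coding genes. Of 14649 protein-coding genes 917 rose and 1823 fell (18.7% called), whereas of 587 long intergenic noncoding RNA genes 57 rose and 19 fell (12.9%), and of 745 antisense genes 37 rose and 10 fell (6.31%). No test of this difference was run, and antisense genes may share reads with their partners. When genes were split into 4 equal bins by mean level, 6.81% of the lowest bin were called, then 23.8%, 17.4% and 19.1%. In the bin that starts at a mean of 75.4 normalized reads 809 fell and 263 rose, and in the highest bin, from 2607, 483 rose and 378 fell. The counts by gene type and by bin were not taken with a library left out or under scaling to the library total. Over all genes that scaling gave 385 higher and 4116 lower calls, so these directions hold for the deposited scaling only.

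Mitochondrial transfer RNAs, short transcripts that poly(A) libraries capture poorly, rose in 8 of 20 tested genes, with a count of 0 falls by limma. Of all tested genes 6.23% were called higher and 10.5% lower. The count for these transfer RNAs was not taken with a library left out or under scaling to the library total. The phenylalanine one, mt-Tf, had 476, 322 and 366 normalized reads in control diet TAC hearts and 798, 931 and 1011 in BCAA-free TAC hearts (log2 change 1.25 ± 0.16, adjusted p = 0.00146), against 987 to 1379 and 779 to 989 in the sham hearts of these diets. RNAs without a poly(A) tail were also higher in BCAA-free TAC 1 and 3, and their part in this was not tested.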
